A study of Mus musculus with 4 samples.

Results

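Cd79a, Cd79b, Vpreb1, Vpreb3, Igll1, Ebf1, Pax5, Rag1 and Il7r are genes of early B-lymphoid cells, and their transcripts were followed in the surface layers of the fetal mouse liver. The members were all probe sets whose only platform gene symbol is one of these 9 genes, which gave 16 probe sets of 45037 once controls were left out, for 9 of the 18193 genes named there. The samples were mesothelial cells, the sheet that covers the liver, together with the submesothelial cells beneath it, surgically isolated from C57BL/6 embryos at embryonic day 17.5. Embryos were either p57+/+, given as wildtype in the labels, or p57-/-, given there as Kip2 -/-, and p57 is the cyclin-dependent kinase inhibitor encoded by Cdkn1c. There were 4 single-colour Affymetrix arrays, 2 of each genotype, and the titles place 1 array of each genotype in experiment 1 and 1 in experiment 2. Replicate 1 is experiment 1 and replicate 2 is experiment 2. Nothing in the labels says whether a sample was 1 embryo, a pool or a litter, or what an experiment shared, so p-values cover the spread among these arrays alone, part of which may be technical.

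The fetal liver is a site of B cell formation before the bone marrow takes over. Interleukin 7, read through the receptor chain encoded by Il7r, supports lymphoid progenitors, and the transcription factors Ebf1 and Pax5 specify and then fix the B cell fate. The Rag1 recombinase cuts the immunoglobulin heavy chain locus, and the heavy chain made from it is displayed with a surrogate light chain, built from the Vpreb1 and Igll1 proteins, as the pre-B cell receptor. Cd79a and Cd79b carry its signal into the cell. B-lineage cells are haematopoietic, and which cells in these samples of the liver surface gave the members' transcripts was not tested. In such bulk samples fewer B-lineage cells and less RNA per cell cannot be told apart.

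The promoter windows of 4 genes are shown because Vpreb1 and Igll1, listed side by side in the RefSeq gene order, gave low signals on the same array, because Vpreb3 did not, and because Vpreb2 is a near copy of Vpreb1 that shares a probe set with it. Each window is 300 bases from RefSeq on GRCm38.p6, from 250 before to 50 after the annotated start, written in the direction of the gene. They lie at chr16:16869206-16869505 on the minus strand for Vpreb1, chr16:16863936-16864235 on the minus strand for Igll1, chr10:75948050-75948349 on the plus strand for Vpreb3 and chr16:17980315-17980614 on the plus strand for Vpreb2. Capitals mark the motifs named in the next paragraph.
Vpreb1: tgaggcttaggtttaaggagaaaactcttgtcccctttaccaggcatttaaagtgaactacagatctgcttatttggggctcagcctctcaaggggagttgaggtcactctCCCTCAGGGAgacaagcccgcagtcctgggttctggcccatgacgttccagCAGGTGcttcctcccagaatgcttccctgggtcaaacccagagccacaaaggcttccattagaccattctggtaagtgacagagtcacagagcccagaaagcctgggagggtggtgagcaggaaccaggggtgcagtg
Igll1: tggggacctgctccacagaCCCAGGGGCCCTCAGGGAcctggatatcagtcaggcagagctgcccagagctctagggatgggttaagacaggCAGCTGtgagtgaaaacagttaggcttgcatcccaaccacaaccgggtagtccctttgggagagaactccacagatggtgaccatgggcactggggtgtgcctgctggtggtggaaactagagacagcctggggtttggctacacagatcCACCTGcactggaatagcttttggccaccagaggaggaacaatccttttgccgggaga
Vpreb3: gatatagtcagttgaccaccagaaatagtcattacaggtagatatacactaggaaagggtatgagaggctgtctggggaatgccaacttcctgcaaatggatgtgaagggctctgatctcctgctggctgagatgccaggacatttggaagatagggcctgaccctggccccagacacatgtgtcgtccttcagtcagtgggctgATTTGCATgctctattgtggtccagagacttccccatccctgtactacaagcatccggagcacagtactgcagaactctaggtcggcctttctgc
Vpreb2: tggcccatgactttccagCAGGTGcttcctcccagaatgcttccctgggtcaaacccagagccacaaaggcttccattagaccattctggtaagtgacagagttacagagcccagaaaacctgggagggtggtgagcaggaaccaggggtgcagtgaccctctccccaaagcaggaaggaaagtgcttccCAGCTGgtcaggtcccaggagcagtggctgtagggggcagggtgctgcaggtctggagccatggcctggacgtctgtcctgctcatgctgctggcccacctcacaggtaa

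The motifs searched on both strands were CCCNNGGG, the core of the form bound by EBF factors,, the E-box forms CAGGTG and CAGCTG, the octamer ATTTGCAT and the longest run of letters that the Vpreb1 and Igll1 windows share on the same strand. That run is CCCTCAGGGA, 10 bases long. It begins 139 bases before the start of Vpreb1 and 223 bases before that of Igll1, and it occurs in 44 of 32851 promoter windows (0.134%). Since the run was picked from these windows, its presence in both is no finding. The EBF core was in 1 of the 9 windows of the 8 members that have one, that of Igll1, where it abuts the shared run, beside 13.7% of all windows. CAGGTG was in 4 of the 9 (Vpreb1, Igll1, Cd79a and Rag1), beside 20.2% of all windows, and CAGCTG in 2 (Igll1 and Rag1), beside 16.3%. The octamer, known from immunoglobulin promoters, was in 1, that of Vpreb3, beside 1.74%. No motif overlapped another in the windows shown. The Vpreb1 and Vpreb2 windows share a run of 91 bases and are 98.1% identical over the 156 bases in which they overlap.

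Of the 16 member probe sets, 9 were called Present on all 4 arrays, beside 18988 of all 45037. These covered 7 of the 9 genes, beside 10419 of 18193 genes on the array. A call of Present, Marginal or Absent comes from the MAS5 detection test of each array. On the p57+/+ arrays 10 and 10 member probe sets were Present, and on the p57-/- arrays 10 and 11. Cd79a and Pax5 were the genes without a tested probe set, a probe set being tested where it was Present on at least 2 of the 4 arrays. This filter passed 10 member probe sets for 7 genes, and 22800 of all probe sets. Most member transcripts were therefore detected in both genotypes and both experiments.

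**Figure D1:**
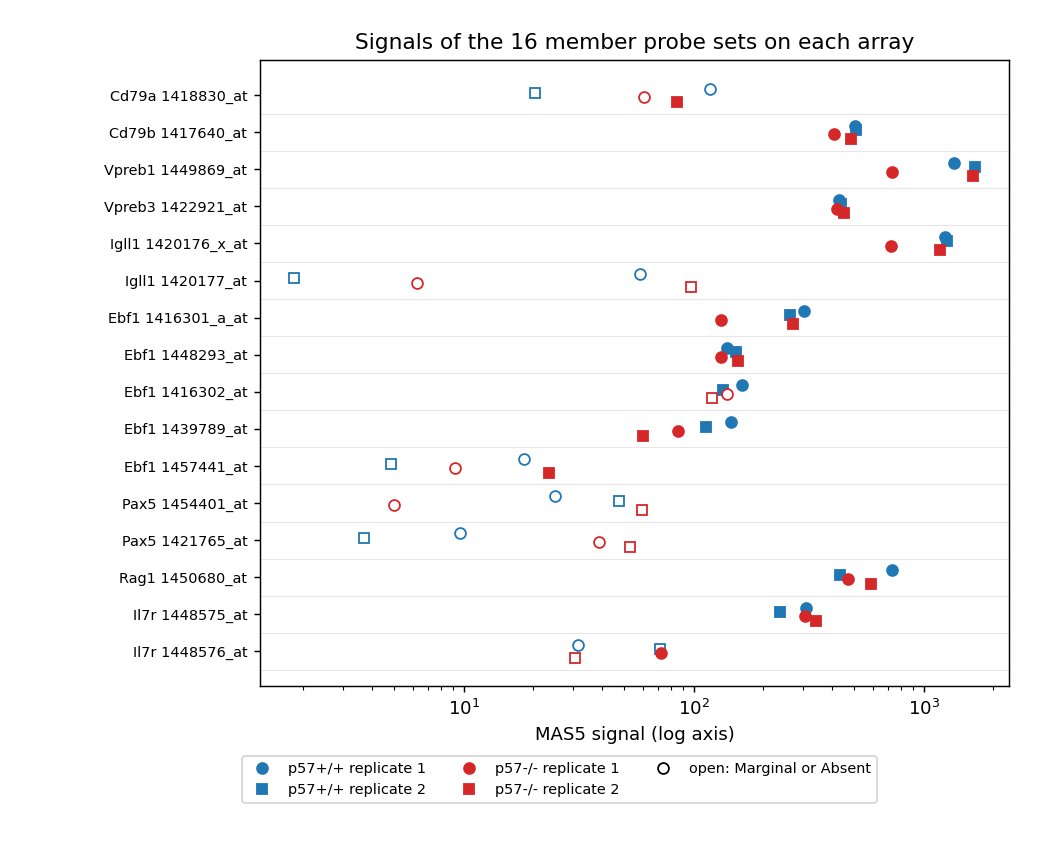
MAS5 signal (horizontal, log axis) of the 16 member probe sets (rows) on the 4 arrays. Blue marks p57+/+ and red p57-/-, circles replicate 1 and squares replicate 2, and open symbols Marginal or Absent calls. The red circle of Vpreb1, at 730, and that of Igll1 1420176_x_at, at 721, lie to the left of the other 3 arrays.

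Cdkn1c was checked first, since it is the gene removed in p57-/-. The p57+/+ arrays had signals of 10255 and 9866 and the p57-/- arrays 7.79 and 7.28, both Absent, so the labels and the signal matched on all 4 arrays. At least 48.4% of the probe sets of an array were Present, with a median signal of 76.0 to 82.7 and a lowest Present signal of 12.4 to 15.4. The 3' over 5' signal of the control probe sets ranged from 0.945 to 1.18 (Gapdh) and from 1.56 to 1.76 (Actb). All 12 mesothelium markers, among them Upk3b, Wt1 and Msln, were Present on all 4 arrays, with the 2 brightest being the keratin genes Krt8 and Krt18. So were all 12 pan-leukocyte markers, all 9 erythroid markers on the array and all 7 hepatocyte markers on it.

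The genotypes were compared to find which transcripts of these layers differ between embryos with and without p57. No member passed the threshold, an adjusted p of 0.05 in limma over all 22800 probe sets tested. Adjusted p-values of the 10 tested member probe sets ran from 0.633 to 0.994. Over the whole array 1 probe set passed, that of Cdkn1c (0.00439%). At an unadjusted p under 0.05 there was 1 member probe set of 10, beside 7.67% of all those tested. Without p57-/- replicate 2, Vpreb1 passed with a log2 difference of -1.04 (limma adjusted p = 0.0241). In that fit 221 of the 22800 probe sets passed (0.969%), 98 higher and 123 lower, against 1 in the fit of all 4 arrays. In the 3 other fits that left out 1 array, no member passed. With 2 arrays against 2, an exact permutation test of a single value cannot give a two-sided p below 0.333.

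In experiment 1 the p57-/- array lay below the p57+/+ array for all 10 tested member probe sets, beside 47.1% of all probe sets tested. In experiment 2 it lay below for 5 of 10, beside 51.8%. A log2 difference below -0.50 was seen for 5 of 10 in experiment 1, beside 9.78%, and for 1 of 10 in experiment 2, beside 10.4%. Of the 10, 5 lay lower in p57-/- in each experiment (26.8% of all probe sets tested), 0 higher in each (27.9%), and 5 had opposite signs in the experiments (45.3%). Each of these differences is 1 array minus 1 array and has no replicate check. Several members share a gene, Ebf1 having 4 of the 10 probe sets. Of these 4, 1416302_at was Present on the p57+/+ arrays alone, so it was tested only through the genotype of higher mean signal. It counts among the 10 and among the 5 lower in each experiment, which leans these counts toward lower in p57-/-. The array of p57-/- replicate 1 was the lowest of the 4 for 6 of the 10, beside 26.3% of all probe sets, a count made after the values were seen. These 6 include Vpreb3 and Ebf1 1448293_at, for which it was only narrowly the lowest. The 2 genotypes did not overlap, with p57-/- below, for 3 of 10, beside 18.8%, and with p57-/- above for 0 of 10, beside 19.8%.

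**Figure D2:**
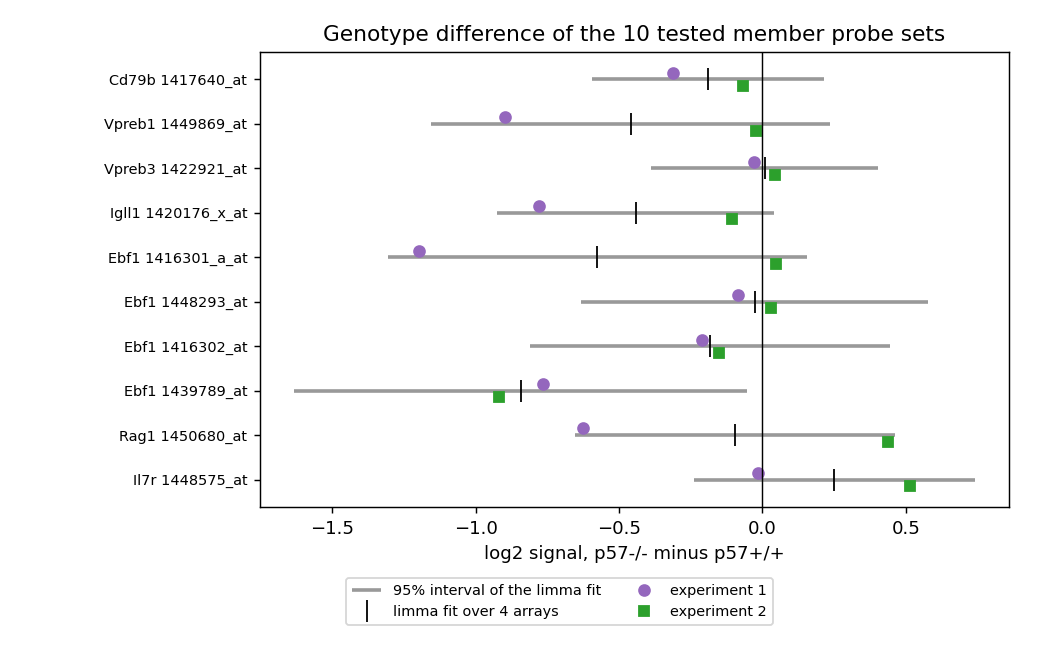
Difference in log2 signal, p57-/- minus p57+/+ (horizontal), of the 10 tested member probe sets (rows). Purple circles are experiment 1, green squares experiment 2, black ticks the limma fit over 4 arrays and grey lines its 95% interval. All purple circles lie below 0, and the interval excludes 0 for 1 probe set, Ebf1 1439789_at.

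Among the genes of the surrogate light chain, Vpreb1 encodes its variable-like part. On the p57+/+ arrays its probe set 1449869_at read 1360 and 1668, and on the p57-/- arrays 730 and 1643, all Present. The array of p57-/- replicate 1 was low and the other 3 lay together, so the genotypes overlapped. The log2 difference was -0.90 in experiment 1, a 1.86-fold lower signal, and -0.02 in experiment 2. The fit gave -0.46 (SE 0.31, 95% interval -1.15 to 0.24, limma adjusted p = 0.747), and it turned to 0.13 without p57-/- replicate 1.

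The probe set 1422416_s_at, which the platform assigns to both Vpreb2 and Vpreb1, lies outside the rule for members. Its signals were 562 and 604 (p57+/+) against 472 and 637 (p57-/-), with a log2 difference of -0.25 in experiment 1 and 0.08 in experiment 2. Here too p57-/- replicate 1 was the lowest array, by less than for Vpreb1 alone. What part of its signal comes from either gene cannot be read from it.

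Igll1 encodes lambda 5, the constant-like part of the surrogate light chain. For its probe set 1420176_x_at the p57+/+ signals were 1238 and 1266 and the p57-/- signals 721 and 1177. Both p57-/- arrays lay below both p57+/+ arrays, narrowly for replicate 2. The log2 difference was -0.78 in experiment 1, a 1.72-fold lower signal, and -0.11 in experiment 2, with a fit of -0.44 (SE 0.22, 95% interval -0.93 to 0.04, limma adjusted p = 0.653). Without p57-/- replicate 1 the log2 difference was -0.09. The suffix _x_at marks a probe set with probes that can also bind other transcripts. Its second probe set, 1420177_at, was Absent on all 4 arrays, with p57+/+ signals of 58.4 and 1.83 and p57-/- signals of 6.25 and 96.9, and gives no level.

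Vpreb3 encodes a related protein that binds newly made heavy chains inside the cell. Wild-type signals were 427 and 438, and p57-/- signals 419 and 452, all Present. The 4 values lay close together, with log2 differences of -0.03 in experiment 1 and 0.04 in experiment 2. The fit gave 0.01 (SE 0.18, 95% interval -0.39 to 0.40, limma adjusted p = 0.994). For Vpreb3 the array of p57-/- replicate 1 was also the lowest, though narrowly. A drop of the size seen there with Vpreb1 and Igll1 was thus not seen with Vpreb3.

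Cd79a and Cd79b encode the paired signalling chains of the pre-B and B cell receptors. Cd79b read 504 and 506 on the p57+/+ arrays against 406 and 483 on the p57-/- arrays, all Present, with p57-/- replicate 1 lowest and no overlap between genotypes. Its log2 difference was -0.31 in experiment 1 and -0.07 in experiment 2, with a fit of -0.19 (SE 0.18, 95% interval -0.59 to 0.22, limma adjusted p = 0.819). Cd79a was Marginal and Absent in p57+/+, at 118 and 20.4, and Absent and Present in p57-/-, at 60.6 and 84.4. Its single probe set was not tested, since 1 array alone called it Present, and its p57+/+ signals lie on either side of both p57-/- signals.

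Ebf1 encodes the factor that starts the B cell program, and it is also expressed in mesenchymal cells, so its signal in these layers need not come from B-lineage cells alone. Its 4 tested probe sets gave unlike pictures. The probe set 1416301_a_at read 302 and 262 (p57+/+) against 132 and 270 (p57-/-), with p57-/- replicate 1 alone low. Its log2 difference was -1.20 in experiment 1, a 2.29-fold lower signal, and 0.05 in experiment 2, with a fit of -0.58 (SE 0.33, limma adjusted p = 0.699), or -0.06 without p57-/- replicate 1. The probe set 1439789_at read 146 and 114 (p57+/+) against 85.9 and 60.1 (p57-/-), low on both p57-/- arrays with no overlap.

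For 1439789_at the log2 differences were -0.77 and -0.92, and the fit gave -0.84 (SE 0.35, 95% interval -1.63 to -0.05, unadjusted p = 0.0390, limma adjusted p = 0.633). This was the lowest p of any member, and it did not pass. The other two tested probe sets differed less between the genotypes. The probe set 1448293_at gave 140 and 153 against 132 and 157, a log2 difference of -0.03 (SE 0.27, limma adjusted p = 0.984), and 1416302_at gave 161 and 134 against 139 and 121, the last pair Marginal and Absent, a log2 difference of -0.18 (SE 0.28, limma adjusted p = 0.900). The remaining probe set, 1457441_at, was Present on p57-/- replicate 2 alone, at 23.6, and was not tested.

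Pax5, which commits cells to the B lineage and is a target of Ebf1, was not detected on any array. Its 2 probe sets were Absent on all 4 arrays. The probe set 1421765_at read 9.64 and 3.68 (p57+/+) against 38.9 and 52.9 (p57-/-), and 1454401_at read 24.9 and 47.2 against 4.97 and 59.5. Their detection p-values ran from 0.150 to 0.754. Both p57-/- signals of 1421765_at lay above both p57+/+ signals, and those of 1454401_at overlapped. With every call Absent such signals give no level, so their order cannot be read as a difference. At this sensitivity Pax5 was not detectable in either genotype.

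Rag1 encodes the catalytic chain of the recombinase that assembles antigen receptor genes. Its p57+/+ signals were 727 and 435 and its p57-/- signals 471 and 589, all Present. The highest and the lowest of the 4 arrays were both p57+/+, so the genotypes overlapped throughout. Experiment 1 gave a log2 difference of -0.63 and experiment 2 one of 0.44, with a fit of -0.09 (SE 0.25, 95% interval -0.65 to 0.46, limma adjusted p = 0.940). Its partner Rag2, listed next to it in the gene order and named after its values were seen, was Present on p57-/- replicate 2 alone, at 30.2.

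Il7r encodes the interleukin 7 receptor alpha chain, which T cells and innate lymphoid cells also carry. With probe set 1448575_at the p57+/+ arrays read 309 and 238 and the p57-/- arrays 306 and 340, all Present. The value of p57+/+ replicate 2 was the low one, and the genotypes overlapped. The log2 difference was -0.02 in experiment 1 and 0.52 in experiment 2, with a fit of 0.25 (SE 0.22, 95% interval -0.24 to 0.74, limma adjusted p = 0.798). Il7r was the member with the highest fitted difference, and the low array of Vpreb1 and Igll1 was not low for it. The second probe set, 1448576_at, was Present on p57-/- replicate 1 alone, at 71.8.

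With 1 probe set per gene, the 7 tested genes had a median log2 difference of -0.19, beside 0.02 over 11656 genes tested. Taken by experiment it was -0.63 in experiment 1, beside 0.03 over all genes, and 0.04 in experiment 2, beside -0.00467. Without p57-/- replicate 1 the members' median was 0.06. Of the 7 genes, 3 were lower in both experiments, 0 were higher in both, and 5 had their lowest value on p57-/- replicate 1, beside 26.7%, 29.6% and 27.8% of all genes tested. Vpreb3 is among these 5, by a narrow margin.

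Other genes of the B lineage were taken from a list of 32, of which 29 were on the array and 25 were tested. None passed the threshold. Of the 25, 7 lay lower and 5 higher in p57-/- in each experiment, beside 26.7% and 29.6% of all genes tested. The median log2 difference was 0.02, with 0.06 in experiment 1 and -0.07 in experiment 2. The list as a whole was thus centred where all genes were. The brightest were Cd24a, which red cell precursors also express, at -0.22 (SE 0.14), and the progenitor factor gene Myb, at 0.32 (SE 0.13). The largest fitted differences were those of Cnr2, a cannabinoid receptor gene of leukocytes, at 0.77 (SE 0.23), Rasgrp1, an activator of Ras in lymphocytes, at -0.44 (SE 0.31), and Bst1, a gene of stromal and early B cells, at 0.42 (SE 0.21).

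Of the 25 tested genes of this list, 9 had their lowest value on p57-/- replicate 1 (36.0%, beside 27.8% of all genes tested) and 6 had their highest there (24.0%, beside 30.8%). The 6 highest there were Irf8, Foxo1, Syk, Btk, Plcg2 and Erg. The 3 genes given next were among those lowest there and were named after their values were seen. Pou2af1, a coactivator of octamer-binding factors in B cells, read 420 and 429 (p57+/+) against 266 and 378 (p57-/-), at -0.66 in experiment 1 and -0.18 in experiment 2. Tcf3, which encodes the E-box binding E2A proteins, gave 899 and 1001 against 646 and 866, at -0.48 and -0.21. Those values are of its brightest tested probe set. Its other tested probe set, Present on all 4 arrays, read 405 and 426 against 319 and 578. There the log2 difference was -0.35 in experiment 1 and 0.44 in experiment 2, so the probe sets differed in sign in experiment 2. The heavy chain gene Ighm, by its brightest tested probe set 1427329_a_at, gave 406 and 502 against 296 and 468, at -0.46 and -0.10. Ighm is a rearranged locus with many platform probe sets that can bind related transcripts, so its level is uncertain.

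The recombination enzyme gene Dntt, which is little used by fetal B cell precursors, was also named after its values were seen. All 3 of its probe sets were Absent on all 4 arrays. Blnk, the adaptor downstream of the pre-B cell receptor, read 385 and 279 (p57+/+) against 278 and 357 (p57-/-), at -0.47 in experiment 1 and 0.35 in experiment 2. As for Rag1, the sign of the difference was not the same in the 2 experiments, and the p57+/+ arrays lay apart.

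For interleukin 7 and TSLP signalling, 13 of 14 listed genes were on the array and 11 were tested, with 0 past the threshold. Of the 11, 6 were higher in both experiments and 1 lower in both, beside 29.6% and 26.7% of all genes tested. The median was 0.11. The brightest were the survival gene Mcl1, at 0.04 (SE 0.11), and the kinase gene Jak1, at -0.03 (SE 0.12). The largest differences were in Bcl2, another survival gene, at -0.51 (SE 0.26), in Cish, a feedback inhibitor induced by STAT5, at 0.42 (SE 0.15), and in Bcl2l11, which promotes apoptosis, at 0.35 (SE 0.17). The cytokine gene Il7 itself, named after its values were seen, was Present on all 4 arrays with 1436861_at, reading 76.8 and 69.3 (p57+/+) against 81.3 and 43.9 (p57-/-). These signals were near or below the array medians of 76.0 to 82.7. Its other probe set, 1422080_at, was Absent on all 4 arrays, at 31.2 and 18.4 (p57+/+) against 3.72 and 3.05 (p57-/-).

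Many markers of mature B cells and of T, NK and innate lymphoid cells were not detected. Over the whole array 11656 of 18193 genes were tested, and 18968 of 45037 probe sets were Present on no array. Of 16 mature B cell genes on the array, 8 were Present on no array and 8 were tested, with 0 past the threshold and a median of -0.25. Among the 8 tested, Ms4a1 was Present on the p57+/+ arrays alone, so it was tested only through that genotype. The brightest were H2-Aa, an antigen presentation gene, and the cytokine gene Ltb. By its brightest tested probe set H2-Aa read 807 and 705 against 459 and 767. Ltb read 491 and 410 against 366 and 549, and by these values both genes were lowest on p57-/- replicate 1. Another tested H2-Aa probe set read 335 and 324 against 208 and 217, with no overlap between genotypes and a fit of -0.63 (SE 0.21). A further one, at 180 and 171 (the latter Absent) against 86.5 and 130, did not overlap either, at -0.73 (SE 0.30). The dimmest overlapped, at 56.3 and 23.8 against 34.2 and 54.0, with a fit of 0.23 (SE 0.62). Of the 8 tested genes, 4 were lowest on p57-/- replicate 1, beside 27.8% of all genes tested, and H2-Ab1, at 480, and Cd40, at 110, were highest there. Of 17 T, NK and innate lymphoid cell genes on the array, 11 were Present on no array, among them Cd3d, Cd3e and Cd3g, and 4 were tested. The brightest of the 4 were Zap70, at 0.53 (SE 0.32), and Gzma, at -0.57 (SE 0.27).

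Lymphoid and multipotent progenitor genes had 10 of 11 genes tested and a median of 0.21. Of the 10, 6 were higher in both experiments and 2 lower in both, beside 29.6% and 26.7% of all genes tested. The brightest genes of this list were Mpo, of granulocyte precursors, at 0.37 (SE 0.11), and the transcription factor gene Cebpa, at 0.19 (SE 0.17). Hepatocyte markers were also Present in these samples, and which cells gave the Cebpa signal was not tested. For plasmacytoid dendritic cells, which share transcripts with B progenitors, 4 of 7 genes were tested and the median was 0.04, with Tcf4 at 0.11 (SE 0.16) and Bst2 at 0.22 (SE 0.23). No gene of these lists passed the threshold.

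Other blood cell transcripts also differed between the arrays. All 9 tested erythroid genes were lower in p57-/- in both experiments, beside 26.7% of all genes, and all 9 had their lowest value on p57-/- replicate 1. Their summed signal was 103274 and 108859 in p57+/+ and 69570 and 92714 in p57-/-. All 12 pan-leukocyte genes were higher in p57-/- in both experiments, beside 29.6% of all genes, with a sum of 25078 and 23994 against 30167 and 26759. The summed signal of the members was 5009 and 4880 against 3250 and 5098. It took 1 probe set for each of the 9 genes, including Cd79a and Pax5, which were not tested. Vpreb1 and Igll1 gave the largest parts of it on every array. So the array with the lowest sum of members also had the lowest erythroid sum and the highest pan-leukocyte sum, and the part of either in the members' signal was not tested. No gene of the erythroid or pan-leukocyte list passed the threshold.

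**Figure D3:**
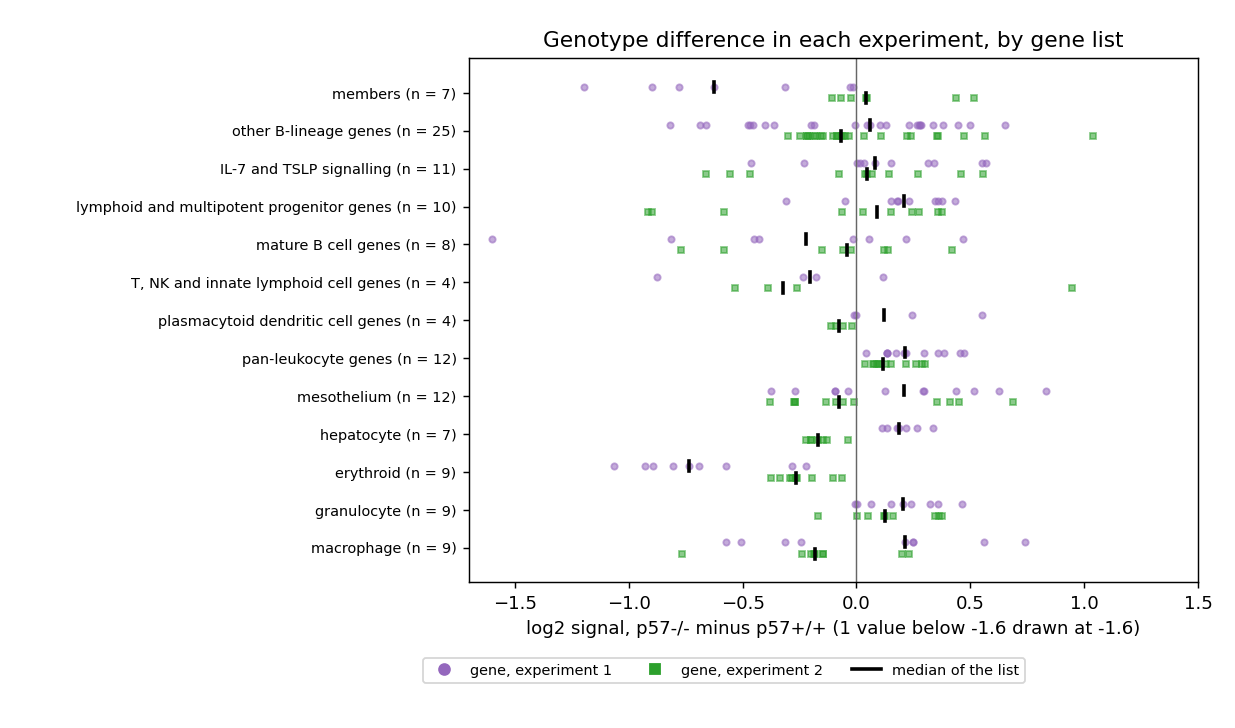
Difference in log2 signal, p57-/- minus p57+/+ (horizontal), of each tested gene by list (rows), in experiment 1 (purple circles) and experiment 2 (green squares), with black bars at the list medians. The members' bar lies at -0.63 in experiment 1 and 0.04 in experiment 2. The erythroid bars lie at -0.74 and -0.27 and the pan-leukocyte bars at 0.21 and 0.12. The circle at the left end is Ms4a1, drawn at -1.6 in place of its value of -3.31. It was called Absent on both p57-/- arrays.

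The members' mean profile over the 4 arrays, from the 7 genes Present on all 4 and centred per gene on the log2 scale, was 0.18 and 0.04 in p57+/+ and -0.38 and 0.16 in p57-/-. Outside the members, the genes nearest to it by root mean square distance were Aida, Anp32e, Gins2, Cdc25c and Cdkn2d, at distances of 0.02 to 0.03. With 4 arrays this likeness is weak, since 35.1% of the 17059 probe sets that carry 1 gene symbol, belong to no member and were Present on all 4 arrays were as near as the median member (0.23). The nearest member was Cd79b, at 0.11, and the farthest Vpreb1, at 0.30.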

How the data were processed

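Per the submitters' processing notes and the file headers, the authors deposited a MAS5 signal intensity on a linear scale for each of 45101 probe sets (64 of them controls) on each of 4 arrays. They also deposited a detection p-value and a call per probe set, per the file headers. The trimmed mean (2% off each end) was 500.003 on every array, so arrays had been scaled to 1 target, which hides a change in total RNA. No source used here gives the MAS5 settings. Per the labels' protocols, labelled cRNA came from 250 ng of total RNA.

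The log2 of each signal was taken, with no other normalization, and limma 3.58.1 (R 4.3.3) was fitted to the genotypes (variance trend, no block, two-sided, Benjamini-Hochberg over all probe sets Present on at least 2 of 4 arrays, threshold 0.05). The code was tested on simulated data. A log2 difference is p57-/- minus p57+/+. Symbols came from the platform annotation, where 34945 probe sets have 1 symbol, 932 several and 9160 none, and all 16 members kept their symbol in the RefSeq table. Promoter sequences are RefSeq's, matched by symbol for 8 of 9 members. For each gene of a list, the tested probe set of highest mean log2 signal was used. The 2 brightest genes are named from the lymphoid, B-lineage, interleukin 7, plasmacytoid dendritic cell and mesothelium lists. They are not named from the pan-leukocyte, hepatocyte, erythroid, granulocyte and macrophage lists. From the B-lineage and interleukin 7 lists the 3 genes of largest difference are named as well. The members and lists were chosen with earlier results of these data known. Alternatives were quantile or median scaling, other filters, an offset, no variance trend, the series' value table, an experiment block and leaving out each array. The number of arrays limits the precision.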

Additional observations from a re-analysis of the deposited data

Results flagged for a closer look

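Of the 10 tested member probe sets, 5 differed between the genotypes in opposite directions in the 2 experiments, beside 45.3% of all probe sets tested. With 1 array per genotype in an experiment the difference between experiments was not tested. The log2 difference of experiment 2 exceeded that of experiment 1 by 1.24 for Ebf1 1416301_a_at, by 1.06 for Rag1, by 0.53 for Il7r 1448575_at, by 0.11 for Ebf1 1448293_at and by 0.0718 for Vpreb3. For Ebf1 1416301_a_at the value that stands apart is that of p57-/- replicate 1, at 132.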

How the results depend on the processing

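No member probe set passed in any alternative that kept all 4 arrays. Fits without 1 array assume that the lone array of a genotype varies like the other pair; over them the count of members called was 0 to 1 (Vpreb1, without p57-/- replicate 2) and the count over all probe sets 5 to 221 (the 221 also without p57-/- replicate 2), beside 1 in the reported fit. The count over all probe sets was 0 with Present calls required on all 4 arrays, which leaves out Cdkn1c. With the experiment number as a replicate block it was 30 (10 higher, 20 lower) and no member passed. Taken over all probe sets tested, same-numbered arrays did not deviate together from their group means (Pearson r across 22800 probe sets, which are not independent, 0.00460). This cannot tell whether they did so for single genes. The reported fit left the experiment number out, while the differences given by experiment compare same-numbered arrays. The members' median ran from -0.32 to 0.06 when 1 array was left out, positive only without p57-/- replicate 1. Directions turned for Vpreb3 after quantile normalization (-0.00162) and median centring (-0.00376). Leaving out 1 array gave ranges through 0 for Vpreb1 (-1.04 to 0.13), Rag1 (-0.47 to 0.28), Ebf1 1448293_at (-0.15 to 0.10) and Vpreb3 (-0.0458 to 0.0622). The 6 other tested member probe sets kept their direction in every alternative in which they were tested; Ebf1 1416302_at was not tested with Present calls required on all 4 arrays, nor Ebf1 1439789_at where the filter asked for a geometric mean of 100 or more. Probe sets not Present, such as those of Pax5, have no measured level.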
